A study of Mus musculus with 6 samples.

Results

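Interferon-stimulated genes are genes whose transcription is switched on when a cell senses an interferon. The group described here has 38 of them, chosen by name and not by any measured value, although earlier results of these data were known. Each was found as 1 row of the deposited count matrix of 61880 rows. The matrix lists assembled loci, and a locus may have a row that carries the gene symbol beside rows that carry another symbol or none. The 38 rows lie in 34 of the 53912 loci, which together hold 76 rows, so each gene is given both as the row with its symbol and as the sum of all rows of its locus. RNA was sequenced from isolated mammary epithelial cells of the inguinal gland of pubertal female mice aged 6 to 8 weeks, on an FVB background. The 3 *fat-1* samples came from mice that carry a transgene of *Caenorhabditis elegans* encoding an *n*-3 desaturase, which makes *n*-3 from *n*-6 polyunsaturated fatty acids throughout the body, and the 3 wildtype (WT) samples came from mice without it. Mice of both genotypes were kept lifelong on the same modified AIN93G diet with 10% fat by weight from safflower oil, and each sample was a pool of the cells of several mice, so differences between single mice were not measured. The comparison asks whether lifelong *n*-3 polyunsaturated fatty acids are accompanied by another level of these RNAs.

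Type I and type III interferons act through paired receptors and Janus kinases, after which a complex that holds STAT2 and IRF9 binds an element called ISRE in the promoters of target genes. Interferon gamma, made mainly by T cells and NK cells, acts through another promoter element, called GAS, and through IRF1. The products of these genes sense viral RNA, block the steps of viral replication, tag proteins with ISG15 or attack the vacuoles of intracellular microbes, and immune, stromal and epithelial cells can all make them.

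The promoter sequences of 28 of the 38 genes were matched by symbol to RefSeq (GRCm38.p6), as windows from 250 bases before to 50 bases after the start. A core ISRE, searched as the letters GAAANNGAAA on either strand, was found in 18 of the 28 genes (64.3%), against 1079 of 27025 genes (3.99%) and 3.44% of all 32851 promoter windows. A GAS, searched as the letters TTCNNNGAA, which read the same on the other strand, was found in 6 of the 28 genes (21.4%), against 9.55% of all genes and 8.3% of all windows. In 1 promoter, that of *Bst2*, a match to each motif overlapped. By role, an ISRE was found in 5 of 6 GTPase genes with a promoter, 3 of 4 IFIT genes, 3 of 5 OAS genes, 2 of 2 sensors, 1 of 3 transcription factors, 1 of 2 genes of the ISG15 system and 3 of 6 other effectors. The 150 bases before the start are shown for *Isg15* and *Ifit1*, which differed by less than 2-fold between WT 2 and WT 3, and for *Igtp* and *Gbp7*, which differed by more than 2-fold between these libraries. Capitals mark the ISRE letters, and each sequence is written 5′ to 3′ on the strand of its gene.
*Isg15* (chr4:156200819-156200968, minus strand): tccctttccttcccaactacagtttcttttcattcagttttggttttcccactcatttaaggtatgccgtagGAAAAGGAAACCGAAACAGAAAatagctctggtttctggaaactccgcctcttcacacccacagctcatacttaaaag
*Ifit1* (chr19:34640739-34640888, plus strand): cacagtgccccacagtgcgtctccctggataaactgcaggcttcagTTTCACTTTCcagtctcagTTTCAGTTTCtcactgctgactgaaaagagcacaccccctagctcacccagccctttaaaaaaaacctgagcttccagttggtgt
*Igtp* (chr11:58199406-58199555, plus strand): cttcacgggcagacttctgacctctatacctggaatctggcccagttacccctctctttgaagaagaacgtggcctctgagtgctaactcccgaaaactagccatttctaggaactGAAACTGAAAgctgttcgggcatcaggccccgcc
*Gbp7* (chr3:142530186-142530335, plus strand): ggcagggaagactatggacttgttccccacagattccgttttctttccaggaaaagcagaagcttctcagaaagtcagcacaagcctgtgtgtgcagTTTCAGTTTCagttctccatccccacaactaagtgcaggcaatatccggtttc

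In *Isg15* the capitals are 3 matches that overlap, with first bases at -78, -72 and -66 from the start. *Ifit1* has 2 separate matches, at -104 and -85, on the other strand. *Igtp* has 1 at -34 and *Gbp7* 1 at -53, and both also hold GAS letters, at -45 in *Igtp* and at -106 and -87 in *Gbp7*. GAS letters did not go with the difference between WT 2 and WT 3 among the other members. *Gbp2*, *Irgm1* and *Ifi47*, which also differed by more than 2-fold, had no GAS match. *Ifit2*, *Oas1a*, *Bst2* and *Ifi35* had a GAS match, and their loci differed by less than 2-fold. A match is a description of the letters and not a binding site shown in these cells.

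Counts per library summed to between 204539059 and 232148824. Levels are in CPM, counts scaled to a common library total after TMM normalization, and unless a row is named they are locus sums. Values by library are given in the order *fat-1* 1, 2 and 3, then WT 1, 2 and 3. The isolates held RNA of other cell types beside that of epithelium. The summed CPM of 9 luminal epithelial markers was 3232, 783 and 1427 in the *fat-1* libraries and 2710, 1629 and 833 in the WT libraries, and that of 5 basal markers was 381, 74.7 and 164 and 279, 141 and 73.1. The pan-leukocyte gene *Ptprc* had 166, 407 and 274 CPM in the *fat-1* libraries and 157, 201 and 398 CPM in the WT libraries. All 15 immune markers had counts in every library, and without the *Cd68* locus, which also holds *Eif4a1*, the other 14 summed to 663, 1454 and 1110 CPM and to 651, 783 and 1498 CPM. Of these sums the *Cd79a* locus, which also holds *Arhgef1*, had 278, 507 and 408 CPM in *fat-1* and 266, 302 and 521 CPM in WT. For 5 fibroblast markers the sums were 1464, 3233 and 4840 CPM and 3017, 4577 and 3998 CPM. Adipocyte markers summed to at most 1.31 CPM in any library. By edgeR's quasi-likelihood test 0 marker loci differed by genotype after adjustment, and 0 at the unadjusted threshold. The genotypes did not overlap in 2 of 4 endothelial marker loci, *Cdh5* and *Tek*, both lower in *fat-1*, beside 4.15% of all loci tested, and they overlapped in every locus of the other marker lists. The smallest unadjusted *p*-values of the lists were those of *Kit* (0.295) and *Elf5* (0.363) for luminal, *Trp63* (0.369) and *Oxtr* (0.401) for basal, *Dcn* (0.299) and *Pdgfra* (0.346) for fibroblast, *Cdh5* (0.0541) and *Tek* (0.0858) for endothelial, *Plin1* (0.445) and *Lep* (0.854) for adipocyte and *Adgre1* (0.374) and *Itgax* (0.475) for immune markers.

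No difference by genotype beyond the spread between libraries was found in the 34 loci. With edgeR's quasi-likelihood test and Benjamini–Hochberg adjustment over all 24061 loci tested, 0 of 34 loci passed, where 0% of all loci passed, and 0 of 34 passed at an unadjusted *p* of 0.05, where 1.14% of all loci did. The exact test of edgeR called 0 of 34 loci (0.0249% of all loci) and DESeq2 called 0 of 34 (0.0332%), both after adjustment. In the symbol rows, the quasi-likelihood test called 0 of 38 after adjustment (0% of 30683 rows tested) and 0 of 38 at the unadjusted threshold (2.21% of all rows), the exact test 0 (0.101%) and DESeq2 0 (0.303%). Unadjusted *p*-values ranged from 0.603 to 0.976 over the loci and from 0.109 to 0.990 over the rows. The ranges of the genotypes overlapped in all 34 loci, whereas they did not in 4.15% of all loci tested.

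The fitted differences were small beside their errors, and their direction rested on single libraries. The median log2 fold change (*fat-1* minus WT) was 0.13 over the 34 loci, of which 30 were above 0 and 4 below, beside a median of 0.0018 over all loci tested. Values ran from -0.12 for *Bst2* to 0.42 for *Mx1*, with a median SE of 0.51, and the 95% intervals lay between -1.69 and 2.33. An interval of this width does not show that the genotypes are alike. Without WT 2, all 34 loci were above 0, with values from 0.018 to 0.38. Without *fat-1* 1, the median was 0.53 and all 34 loci were above 0, and without WT 3 it was 0.42. It was below 0 without WT 1 (-0.11), without *fat-1* 2 (-0.10) and without *fat-1* 3 (-0.12), and 33 of the 34 loci were below 0 without WT 1. With the mean level of all immune markers, the *Cd68* locus included, as a further term, the median was -0.03, with 10 loci above and 24 below 0. The median SE was then 0.29. The part of cell composition in the genotype difference was not tested further, and with bulk RNA fewer cells of a type and less RNA per cell cannot be told apart.

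**Figure D1:**
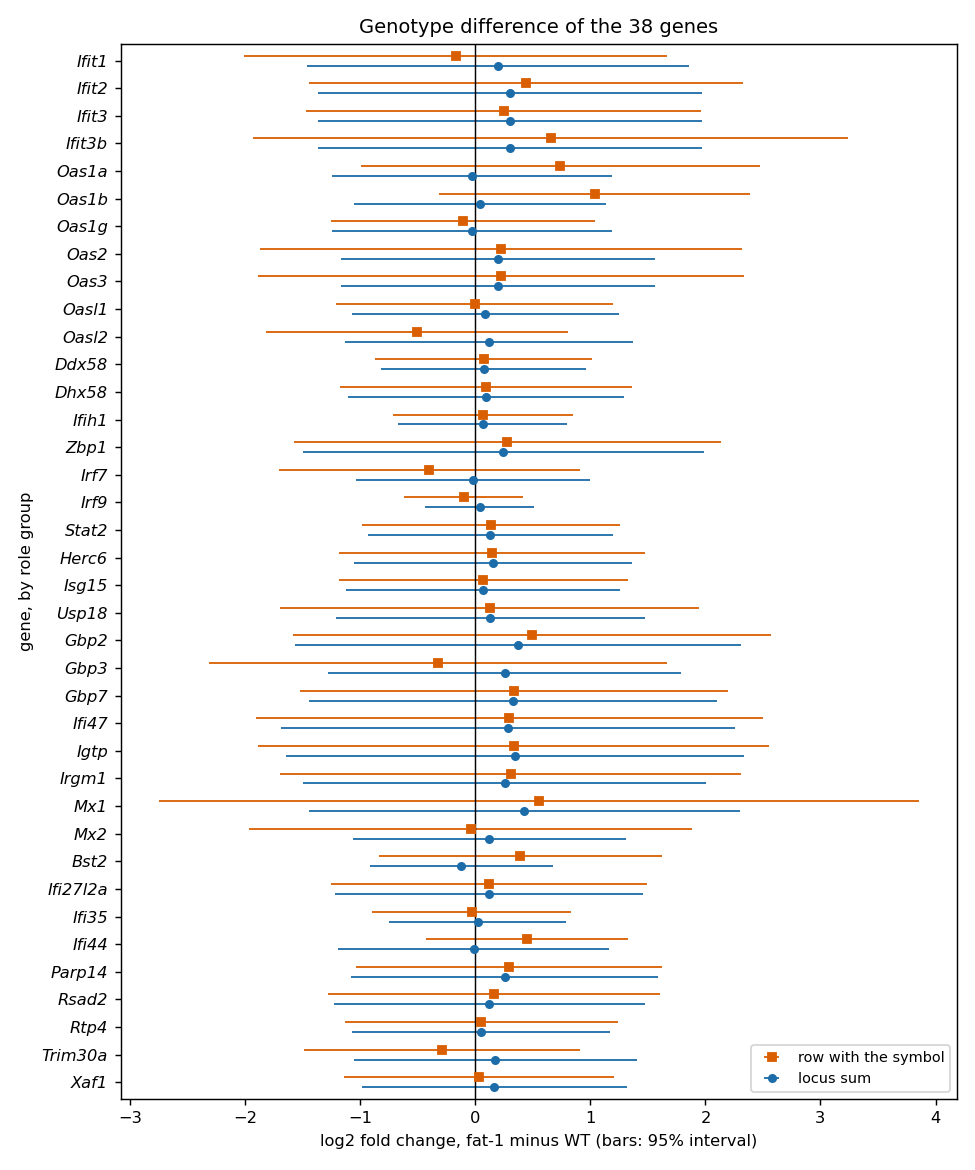
Log2 fold change (*fat-1* minus WT, x axis) of each of the 38 genes by role group, for the row with the symbol (squares) and for the locus sum (circles), with 95% intervals from edgeR's quasi-likelihood fit. Every interval includes 0, and the locus sums lie between -0.12 and 0.42. Genes that share a locus have the same circle.

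In every one of the 34 loci, *fat-1* 1 was the lowest of the 6 libraries, which held for 25.2% of all loci tested. WT 1 was the lowest WT library in 34 of 34 loci (34.5% of all loci), and WT 3 was the highest WT library in 32 of 34 (35.7%), all but *Bst2* and *Ifi44*. Summed over the 34 loci, the level was 2182, 7432 and 8311 CPM in the *fat-1* libraries and 3100, 5079 and 7726 CPM in the WT libraries. The libraries of a genotype differed more than the genotypes did. The range within *fat-1* was over 3-fold in 28 of 34 loci (13.2% of all loci), and within WT in 9 of 34 (10%). The mean of *fat-1* 2 and 3 was 3.45 times *fat-1* 1 in the median locus (1.52 to 6.43), and that of WT 2 and 3 was 1.97 times WT 1 (1.23 to 3.77).

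**Figure D2:**
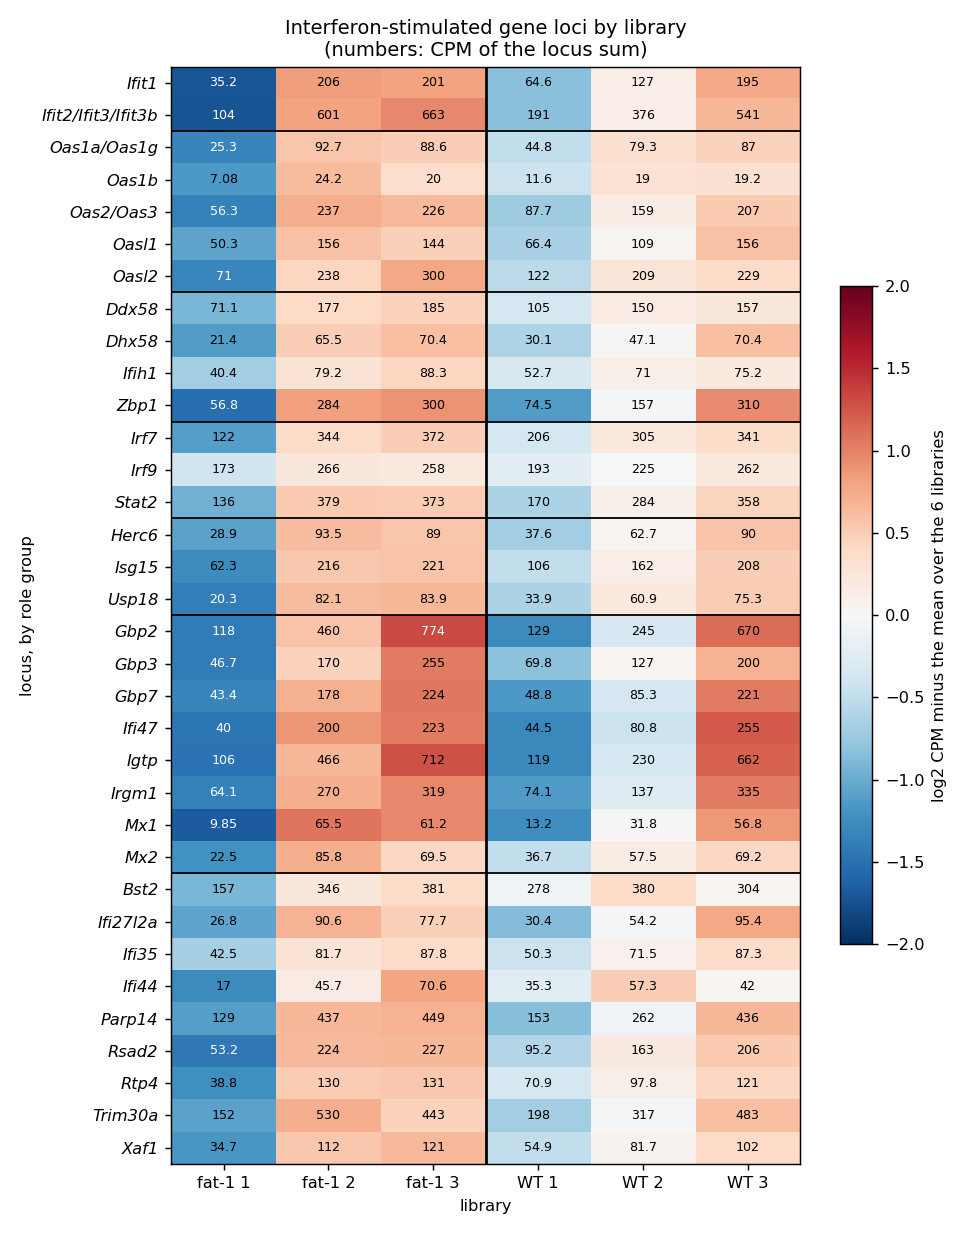
Level of the 34 loci (rows, by role group) in the 6 libraries (columns). The colour is log2 CPM minus the mean of the locus over the 6 libraries, and the printed number is the CPM of the locus sum. The *fat-1* 1 column is the lowest of all 6 in each locus, and WT 1 is the lowest of the WT columns.

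The low interferon-stimulated gene libraries were those with the most epithelial RNA. *Krt8*, a keratin of luminal cells, had 899, 210.1 and 344 CPM in the *fat-1* libraries and 645, 397 and 221 CPM in the WT libraries. The order of the summed members was *fat-1* 1, WT 1, WT 2, *fat-1* 2, WT 3 and *fat-1* 3 from low to high, and that of the summed luminal markers from high to low was *fat-1* 1, WT 1, WT 2, *fat-1* 3, WT 3 and *fat-1* 2. By mean log2(CPM + 1), WT 1 was above *fat-1* 1 in luminal markers (7.36 and 7.24) and in basal markers (5.29 and 5.14). The luminal markers *Krt19*, *Elf5*, *Prlr*, *Esr1*, *Pgr* and *Kit* and the basal markers *Trp63* and *Oxtr* were each highest in WT 1. Mean log2(CPM + 1) of the 15 immune markers, with the *Cd68* locus included, was 4.06, 4.84 and 4.52 in *fat-1* and 4.03, 4.35 and 4.89 in WT. Thus *fat-1* 2 and WT 3 were highest in immune markers while *fat-1* 3 was highest in the interferon-stimulated genes. Summed fibroblast markers were lowest in *fat-1* 1 and highest in *fat-1* 3, although *Dcn* and *Pdgfra* were each highest in WT 2. These are 6 libraries, and the part of each cell type in the levels was not tested.

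**Figure D3:**
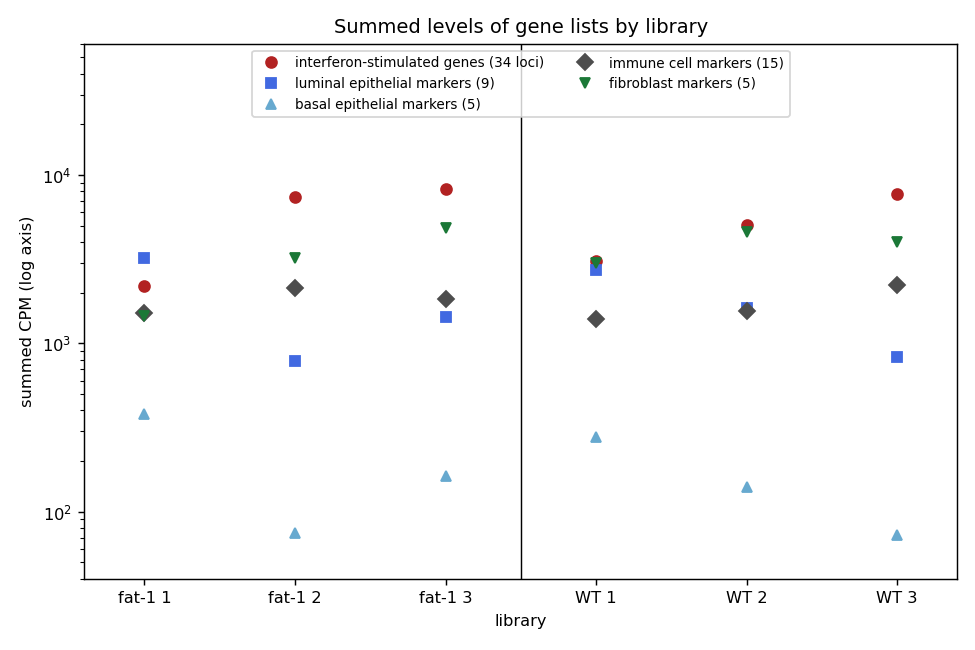
Summed CPM (log axis) of the 34 interferon-stimulated gene loci and of marker lists of luminal and basal epithelium, immune cells and fibroblasts in each library. The members are lowest in *fat-1* 1 (2182 CPM), where the sums of luminal and basal markers are highest (3232 and 381 CPM), although several single markers are highest in WT 1.

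The transcription factors of the pathway were among the steadier members. *Stat2*, a subunit of the factor that binds the ISRE, had 136, 379 and 373 CPM in the *fat-1* libraries and 170.3, 284 and 358 CPM in the WT libraries, with means of 296 ± 139 CPM in *fat-1* and 271 ± 94.5 CPM in WT (SD, n = 3) (log2 fold change 0.13 ± 0.44 (SE), 95% interval -0.93 to 1.19, unadjusted *p* = 0.777, adjusted *p* = 1.00). *Irf9*, which gives that factor its DNA binding, had 173, 266 and 258 CPM in the *fat-1* libraries and 193, 225 and 262 CPM in the WT libraries, the smallest range of all 34 loci (1.54-fold in *fat-1* and 1.35-fold in WT), although its locus also holds *Rnf31*. *Irf7*, which amplifies type I interferon transcription, had 122, 344 and 372 CPM in the *fat-1* libraries and 206, 305 and 341 CPM in the WT libraries (log2 fold change -0.02 ± 0.42 (SE), 95% interval -1.04 to 0.99, unadjusted *p* = 0.957, adjusted *p* = 1.00). In all 3 genes *fat-1* 1 and WT 1 were low, and the ranges of the genotypes overlapped over all libraries. *fat-1* 2 and 3 were both above WT 2 and 3 for *Stat2* and *Irf7*, but not for *Irf9*.

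Of the nucleic acid sensors, *Ddx58* encodes RIG-I and *Ifih1* encodes MDA5, which detect viral RNA in the cytosol. *Ddx58* had 71.1, 177 and 185 CPM in the *fat-1* libraries and 105, 150.3 and 157 CPM in the WT libraries (log2 fold change 0.07 ± 0.37 (SE), 95% interval -0.82 to 0.96, unadjusted *p* = 0.854, adjusted *p* = 1.00). *Ifih1* had 40.4, 79.2 and 88.3 CPM in the *fat-1* libraries and 52.7, 70.97 and 75.2 CPM in the WT libraries (log2 fold change 0.06 ± 0.30 (SE), 95% interval -0.67 to 0.80, unadjusted *p* = 0.840, adjusted *p* = 1.00). Both ranged by less than 3-fold within each genotype. *Dhx58*, the related helicase LGP2, had 21.4, 65.5 and 70.4 CPM in the *fat-1* libraries and 30.1, 47.1 and 70.4 CPM in the WT libraries. *Zbp1*, a sensor of Z-form nucleic acid that can start necroptosis, had 56.8, 284 and 300.2 CPM in the *fat-1* libraries and 74.5, 157 and 310.2 CPM in the WT libraries. The range of *Zbp1* was wider than that of the 3 helicases, 5.29-fold in *fat-1* and 4.16-fold in WT.

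*Isg15*, the ubiquitin-like protein that is attached to other proteins, had a level per length of 215 CPM per kb of exon on average. It had 62.3, 216 and 221 CPM in the *fat-1* libraries and 106, 162 and 208 CPM in the WT libraries, with means of 166 ± 90.3 CPM in *fat-1* and 159 ± 51.2 CPM in WT (SD, n = 3) (log2 fold change 0.07 ± 0.49 (SE), 95% interval -1.13 to 1.26, unadjusted *p* = 0.897, adjusted *p* = 1.00). *Usp18*, the protease that removes ISG15 and restrains the type I receptor, had 20.3, 82.1 and 83.9 CPM in the *fat-1* libraries and 33.9, 60.9 and 75.3 CPM in the WT libraries. *Herc6*, the main ligase for ISG15 in mice, had 28.9, 93.5 and 88.99 CPM in the *fat-1* libraries and 37.6, 62.7 and 89.97 CPM in the WT libraries. The 3 genes of the system kept nearly the same order of libraries, and *fat-1* 2 and 3 were above WT 2 for each.

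The IFIT proteins bind foreign RNA ends and hold back translation. *Ifit1* (chr19:34640871-34650009, GRCm38) had 35.2, 206 and 201 CPM in the *fat-1* libraries and 64.6, 127 and 195 CPM in the WT libraries (log2 fold change 0.20 ± 0.69 (SE), 95% interval -1.46 to 1.86, unadjusted *p* = 0.783, adjusted *p* = 1.00). *Ifit2*, *Ifit3* and *Ifit3b* form 1 assembled locus just before it on chromosome 19, which had 104, 601 and 663 CPM in the *fat-1* libraries and 191, 376 and 541 CPM in the WT libraries (log2 fold change 0.30 ± 0.69 (SE), 95% interval -1.37 to 1.97, unadjusted *p* = 0.675, adjusted *p* = 1.00). The *fat-1* libraries ranged over 5.85-fold in *Ifit1* and 6.38-fold in the shared locus, while WT 1 stood above *fat-1* 1 in both. Within the shared locus the *Ifit3* row had 49.1, 258 and 326 CPM in the *fat-1* libraries and 96.6, 195 and 242 CPM in the WT libraries. The *Ifit2* row had 16.6, 105 and 109.7 CPM in the *fat-1* libraries and 28.6, 46.5 and 95.2 CPM in the WT libraries. The *Ifit3b* row had 12.1, 19.01 and 93.3 CPM in the *fat-1* libraries and 20.01, 5.51 and 53.6 CPM in the WT libraries, with low values in *fat-1* 2 and WT 2 that the *Ifit3* row did not show. Of 100-base windows of the *Ifit3* transcript, 31.7% also occur in *Ifit3b*, so the split between these rows is uncertain.

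The OAS enzymes make oligoadenylates that activate RNase L when they bind viral RNA. *Oas1a* and *Oas1g* shared a locus on chromosome 5 that had 25.3, 92.7 and 88.6 CPM in the *fat-1* libraries and 44.8, 79.3 and 87.03 CPM in the WT libraries (log2 fold change -0.03 ± 0.50 (SE), 95% interval -1.25 to 1.19, unadjusted *p* = 0.953, adjusted *p* = 1.00). *Oas2* and *Oas3* shared another, with 56.3, 237 and 226 CPM in the *fat-1* libraries and 87.7, 159 and 207 CPM in the WT libraries (log2 fold change 0.19 ± 0.56 (SE), 95% interval -1.17 to 1.56, unadjusted *p* = 0.742, adjusted *p* = 1.00). In both loci WT 2 and WT 3 differed by less than 1.5-fold and *fat-1* 2 and 3 were nearly level. *Oas1b* had 7.08, 24.2 and 19.99 CPM in the *fat-1* libraries and 11.6, 19.01 and 19.2 CPM in the WT libraries. *Oasl1*, an OAS-like gene, had 50.3, 156 and 144 CPM in the *fat-1* libraries and 66.4, 109 and 156 CPM in the WT libraries. *Oasl2* had 71.03, 238 and 299.7 CPM in the *fat-1* libraries and 122, 209 and 229 CPM in the WT libraries. In the rows, *Oas1a* and *Oas1g* share 40.9% and 38.2% of their 100-base windows with each other and are likewise uncertain.

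The GTPase genes had the widest WT ranges of the 7 role groups, with a median of 4.53-fold, and their median in *fat-1* was 5.53-fold, beside 6.11-fold for the 2 IFIT loci. Guanylate-binding proteins and immunity-related GTPases act on the vacuoles of intracellular microbes and are strongly induced by interferon gamma, and the Mx proteins block viral nucleocapsids. *Gbp2* (chr3:142620602-142638008) had 118, 460.4 and 774 CPM in the *fat-1* libraries and 129, 245 and 669.7 CPM in the WT libraries (log2 fold change 0.37 ± 0.80 (SE), 95% interval -1.57 to 2.31, unadjusted *p* = 0.657, adjusted *p* = 1.00). *Gbp7* had 43.4, 178 and 224 CPM in the *fat-1* libraries and 48.8, 85.3 and 221 CPM in the WT libraries (log2 fold change 0.33 ± 0.74 (SE), 95% interval -1.45 to 2.10, unadjusted *p* = 0.673, adjusted *p* = 1.00). *Gbp3* had 46.7, 170.0 and 255 CPM in the *fat-1* libraries and 69.8, 127 and 199.7 CPM in the WT libraries (log2 fold change 0.25 ± 0.64 (SE), 95% interval -1.28 to 1.79, unadjusted *p* = 0.704, adjusted *p* = 1.00). These neighbours on chromosome 3 shared the order of libraries, with *fat-1* 3 and WT 3 the highest of their genotypes. *Igtp*, whose locus also holds *Irgm2*, had 106, 466 and 712 CPM in the *fat-1* libraries and 119, 230.1 and 662 CPM in the WT libraries. *Irgm1*, a regulator of the other immunity-related GTPases, had 64.1, 270.0 and 319 CPM in the *fat-1* libraries and 74.1, 137 and 335 CPM in the WT libraries. *Ifi47*, whose locus also holds *Olfr56*, had 39.97, 199.7 and 223 CPM in the *fat-1* libraries and 44.5, 80.8 and 255 CPM in the WT libraries. In these 3 loci on chromosome 11, WT 1 was close to *fat-1* 1 and WT 3 close to *fat-1* 3. *Mx1*, with the smallest *p* of the 34 loci, had 9.85, 65.5 and 61.2 CPM in the *fat-1* libraries and 13.2, 31.8 and 56.8 CPM in the WT libraries (log2 fold change 0.42 ± 0.78 (SE), 95% interval -1.45 to 2.30, unadjusted *p* = 0.603, adjusted *p* = 1.00). *Mx2* had 22.5, 85.8 and 69.5 CPM in the *fat-1* libraries and 36.7, 57.5 and 69.2 CPM in the WT libraries. *Mx1* was the gene with the largest fitted difference, and its interval still spanned over 3 log2 units.

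The ratio of WT 3 to WT 2 was highest in the GTPase genes. WT 3 was over 2-fold above WT 2 in 5 of 34 loci (5.58% of all loci tested), and these were *Gbp2*, *Gbp7*, *Igtp*, *Irgm1* and *Ifi47*. The ratio of WT 3 to WT 2 had a median of 2.52 over the 8 GTPase loci (1.20 to 3.15). The medians were 1.49 over the 2 IFIT loci, 1.10 over the 5 OAS loci, 1.28 over the 4 sensors, 1.16 over the 3 transcription factors, 1.28 over the 3 loci of the ISG15 system and 1.25 over the 9 other effectors. In the *fat-1* pair, the ratio of *fat-1* 3 to *fat-1* 2 had a median of 1.22 over the GTPases (0.810 to 1.68) and 1.04 over all 34 loci. Each ratio compares 2 libraries, so it has no replicate check.

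**Figure D4:**
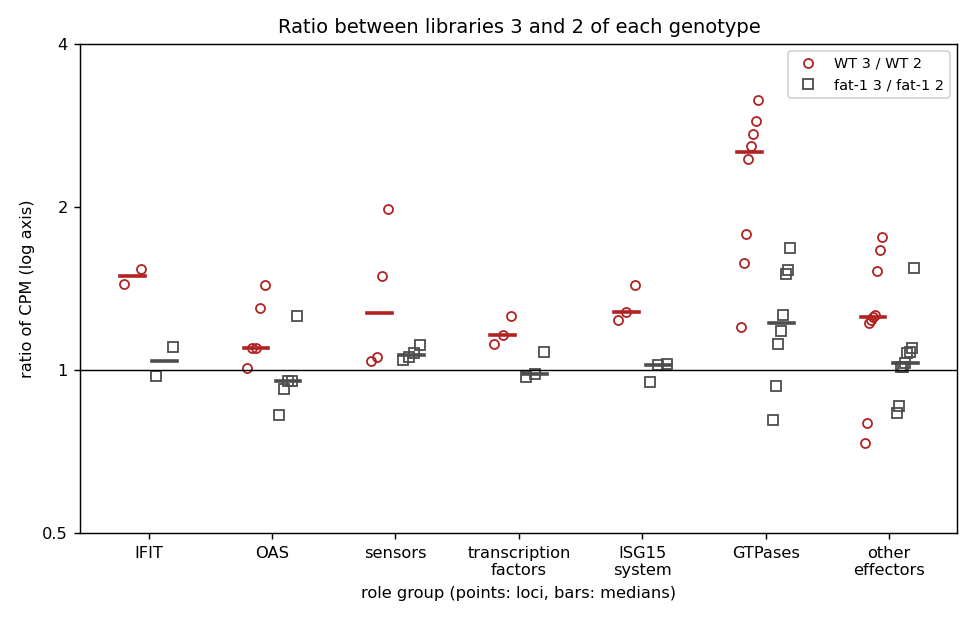
Ratio of CPM between WT 3 and WT 2 (circles) and between *fat-1* 3 and *fat-1* 2 (squares) on a log axis, for each locus by role group, with the medians as bars. The GTPase loci have a median of 2.52 in the WT pair, and the other groups have medians of 1.10 to 1.49.

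Among the other effectors, *Bst2* and *Ifi27l2a* had high levels per length. The *Bst2* locus had a mean of 341 CPM per kb of the exons of *Bst2*, and of 113 CPM per kb where the exons of *Ccdc194*, which shares the locus and whose row had at most 22 counts in a library, were included, so that its place above or below *Isg15* depends on the length used. The mean of *Ifi27l2a* was 135 CPM per kb. *Bst2*, which tethers budding virus to the cell surface, had 157, 346 and 381 CPM in the *fat-1* libraries and 278, 380.2 and 304 CPM in the WT libraries (log2 fold change -0.12 ± 0.33 (SE), 95% interval -0.91 to 0.67, unadjusted *p* = 0.722, adjusted *p* = 1.00). WT 2 was the highest WT library for *Bst2*, and 2 WT libraries lay between *fat-1* 1 and *fat-1* 2. *Ifi27l2a* had 26.8, 90.6 and 77.7 CPM in the *fat-1* libraries and 30.4, 54.2 and 95.4 CPM in the WT libraries. *Ifi44* had 16.97, 45.7 and 70.6 CPM in the *fat-1* libraries and 35.3, 57.3 and 42.04 CPM in the WT libraries, with WT 2 again above WT 3. *Parp14*, an ADP-ribosyltransferase, had 129, 437 and 449 CPM in the *fat-1* libraries and 153, 262 and 436 CPM in the WT libraries (log2 fold change 0.25 ± 0.55 (SE), 95% interval -1.08 to 1.59, unadjusted *p* = 0.660, adjusted *p* = 1.00). *Trim30a*, a TRIM protein that restrains Toll-like receptor signals, had 152, 530.1 and 443 CPM in the *fat-1* libraries and 198, 317 and 483 CPM in the WT libraries. *Rsad2*, which encodes the antiviral enzyme viperin, had 53.2, 224 and 227 CPM in the *fat-1* libraries and 95.2, 163 and 206 CPM in the WT libraries. The last 3 had *fat-1* 2, *fat-1* 3 and WT 3 close together and WT 2 below them. *Xaf1*, a partner of the apoptosis inhibitor XIAP, had 34.7, 112 and 121 CPM in the *fat-1* libraries and 54.9, 81.7 and 102 CPM in the WT libraries. *Rtp4*, a receptor transporter protein, had 38.8, 129.5 and 131 CPM in the *fat-1* libraries and 70.9, 97.8 and 121 CPM in the WT libraries. *Ifi35* had 42.5, 81.7 and 87.8 CPM in the *fat-1* libraries and 50.3, 71.5 and 87.3 CPM in the WT libraries, the smallest *fat-1* range of this role group (2.07-fold). Whether the counting used strand is not given in the sources used here, and 16.8% of the exon bases of *Ifi35* overlap the antisense gene *Gm11626*. Of the 100-base windows of *Herc6*, 20.9% also occur in *Gm45193*, and of those of *Rtp4* 11.2% in *Gm45338*. Each of these genes lies in the same locus as the member, so the locus sums do not depend on how such reads were placed. The rows of *Gm45193* and *Gm45338* had at most 18 and 31 counts in a library.

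The symbol rows did not always stand for their locus. In 29 of the 34 loci the counts were divided over more than 1 row, and *Isg15*, *Stat2*, *Ddx58*, *Ifih1* and *Dhx58* had a single row. Of the 38 symbol rows, 17 held over 50% of their locus in every library, 9 held under 50% in every library, and for 14 the share differed by over 20 percentage points between libraries. The *Usp18* row held 1.47% to 2.55% of its locus. The *Mx1* row held 32.1, 48.2 and 43.8% in the *fat-1* libraries and 3.16, 62.9 and 37.9% in the WT libraries, so that the row had 0.416 CPM in WT 1 where the locus had 13.2 CPM. The log2 fold change of the row and of the locus had opposite signs for 11 genes and differed by over 0.5 for 5.

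These 5 genes include 4 of the 5 rows with the smallest *p*-values. The *Oas1b* row had 2.26, 10.9 and 8.72 CPM in the *fat-1* libraries and 3.81, 3.18 and 3.66 CPM in the WT libraries (log2 fold change 1.04 ± 0.55 (SE), 95% interval -0.31 to 2.39, unadjusted *p* = 0.109, adjusted *p* = 1.00), with *fat-1* 2 and 3 above all WT libraries, while the locus had a log2 fold change of 0.04. Its share of the locus was 31.8, 44.8 and 43.7% in the *fat-1* libraries and 32.9, 16.7 and 19.1% in the WT libraries. The *Oas1a* row had 3.70, 10.8 and 28.2 CPM in the *fat-1* libraries and 8.59, 11.03 and 5.99 CPM in the WT libraries (log2 fold change 0.74 ± 0.71 (SE), 95% interval -0.998 to 2.48, unadjusted *p* = 0.336, adjusted *p* = 1.00), high in *fat-1* 3 alone, and its locus had -0.03. The *Oasl2* row had 23.1, 93.8 and 54.04 CPM in the *fat-1* libraries and 80.8, 52.8 and 109.8 CPM in the WT libraries (log2 fold change -0.51 ± 0.53 (SE), 95% interval -1.82 to 0.80, unadjusted *p* = 0.377, adjusted *p* = 1.00), and its locus had 0.12. The *Bst2* row had 130.4, 180.0 and 80.1 CPM in the *fat-1* libraries and 70.6, 56.9 and 170.3 CPM in the WT libraries (log2 fold change 0.39 ± 0.50 (SE), 95% interval -0.84 to 1.62, unadjusted *p* = 0.464, adjusted *p* = 1.00), and its locus had -0.12. Its share of the locus was 82.7, 51.9 and 21.1% in the *fat-1* libraries and 25.4, 14.9 and 56.2% in the WT libraries. The *Gbp3* row had 17.4, 108 and 129.8 CPM in the *fat-1* libraries and 52.4, 76.5 and 192 CPM in the WT libraries (log2 fold change -0.33 ± 0.81 (SE), 95% interval -2.32 to 1.66, unadjusted *p* = 0.700, adjusted *p* = 1.00), and its locus had 0.25. For each of the 5, the genotypes overlapped in the row. *Ifi44*, the other row among the 5 smallest *p*-values, had 8.57, 17.2 and 21.7 CPM in the *fat-1* libraries and 12.9, 9.49 and 12.4 CPM in the WT libraries (log2 fold change 0.45 ± 0.36 (SE), 95% interval -0.43 to 1.33, unadjusted *p* = 0.258, adjusted *p* = 1.00).

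Some row values passed the unadjusted threshold only when a library was left out. Without *fat-1* 1, the rows of *Oas1b* (log2 fold change 1.47 ± 0.20, unadjusted *p* = 0.000743, adjusted *p* = 0.796) and *Ifi44* (0.75 ± 0.22, unadjusted *p* = 0.0185, adjusted *p* = 1.00) passed by edgeR's quasi-likelihood test, where 3.04% of all rows did. Without WT 3, the rows of *Gbp2* (2.03 ± 0.44, unadjusted *p* = 0.00614) and *Bst2* (1.03 ± 0.38, unadjusted *p* = 0.0425) passed, both with an adjusted *p* = 1.00, where 3.13% did. None of these passed after adjustment, and 0 of the 34 loci passed the unadjusted threshold in any of the 6 fits that leave out 1 library. The median over the 38 rows was 0.14 with all libraries (28 above and 10 below 0, beside 0.0049 over all rows tested), 0.51 without *fat-1* 1, 0.47 without WT 3, -0.12 without WT 1, -0.09 without *fat-1* 2 and -0.16 without *fat-1* 3. Without WT 2, 30 of the 38 rows were above 0 and 8 below.

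**Figure D5:**
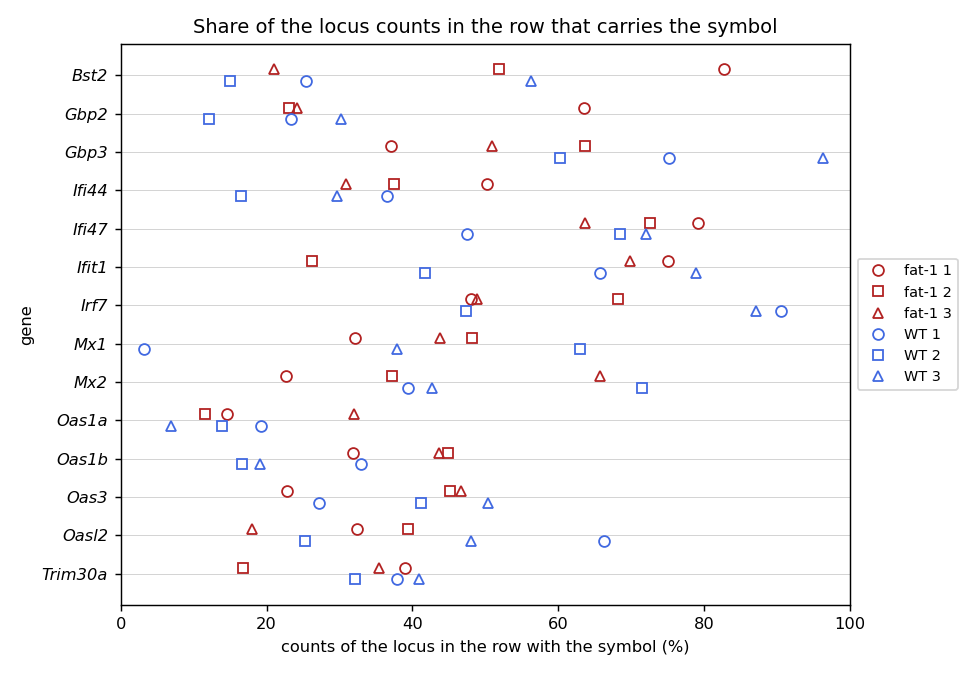
Percent of the counts of each locus that lie in the row with the symbol (x axis), for the 14 genes whose share differs by over 20 percentage points between libraries. Symbols are single libraries, *fat-1* in red and WT in blue. The *Mx1* row holds 3.16% of its locus in WT 1 and 62.9% in WT 2.

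The interferon genes themselves were at low levels, highest for interferon gamma. Of 13 ligand genes, 4 had enough counts to be tested, with 0 called after adjustment. *Ifng* (in a locus with *Gm49751*) had 0.645, 3.85 and 6.52 CPM in the *fat-1* libraries and 0.678, 0.918 and 3.40 CPM in the WT libraries (log2 fold change 1.14 ± 0.92 SE, unadjusted *p* = 0.256), low in *fat-1* 1, WT 1 and WT 2. *Ifnb1*, the interferon beta gene, had 0.356, 0.718 and 0.764 CPM in the *fat-1* libraries and 0.444, 0.344 and 0.691 CPM in the WT libraries. *Ifna2* had 0.0806, 0.107 and 0.0529 CPM in the *fat-1* libraries and 0.0467, 0.0353 and 0.0341 CPM in the WT libraries. Of the 4 ligands tested it alone passed the unadjusted threshold by edgeR's quasi-likelihood test, where 1.14% of all loci did (log2 fold change 1.04 ± 0.40 SE, unadjusted *p* = 0.0392, adjusted *p* = 1.00). Its genotypes did not overlap, beside 4.15% of all loci tested. The *Ifna2* levels rested on 17, 23 and 11 counts in *fat-1* and 10, 8 and 7 counts in WT. The other alpha, epsilon, kappa and lambda genes were at or below 0.242 CPM in each library.

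The receptor genes were at similar levels in the 6 libraries apart from *Ifnlr1*. The 6 receptor genes lie in 5 loci, of which 0 passed after adjustment and 0 at the unadjusted threshold, with a median log2 fold change of -0.02. *Ifnar1*, a chain of the type I receptor, had 91.9, 109.9 and 103 CPM in the *fat-1* libraries and 93.7, 98.1 and 104 CPM in the WT libraries. *Ifngr1*, the ligand-binding chain of the interferon gamma receptor, had 128, 141 and 127 CPM in the *fat-1* libraries and 124, 123 and 161 CPM in the WT libraries. *Ifnlr1*, the chain of the type III receptor that is largely restricted to epithelia, had 12.1, 3.60 and 6.83 CPM in the *fat-1* libraries and 12.2, 7.39 and 3.72 CPM in the WT libraries, so that it was highest in *fat-1* 1 and WT 1, where the luminal markers were highest and the interferon-stimulated genes lowest.

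Of 21 signalling genes, 0 loci passed after adjustment or at the unadjusted threshold, 17 were above 0 and 4 below, and the median was 0.06. Of the 21 symbol rows 1 passed the unadjusted threshold, where 2.21% of all rows did, and it was that of *Tlr3*, a receptor for viral RNA, with a log2 fold change of -0.50 (unadjusted *p* = 0.0422), where its locus had -0.04. *Tyk2*, the kinase of the type I receptor, had the smallest *p* (42.3, 38.01 and 40.4 (*fat-1*) and 34.6, 35.03 and 39.7 CPM (WT), unadjusted *p* = 0.209). *Irf1*, the factor downstream of interferon gamma, followed with 113, 271 and 345 CPM in the *fat-1* libraries and 93.5, 128 and 318 CPM in the WT libraries. *Socs1*, a feedback inhibitor of the kinases, had 7.14, 25.5 and 30.3 CPM in the *fat-1* libraries and 7.17, 10.6 and 32.6 CPM in the WT libraries. WT 3 was the highest WT library in 16 of the 21 loci and over 2-fold above WT 2 in 6, beside 5.58% of all loci tested. The ratio of WT 3 to WT 2 was 3.07 for *Socs1*, 2.48 for *Irf1*, 2.92 and 2.17 for the factors *Irf8* and *Irf5*, and 2.80 and 2.79 for *Tlr9* and *Tlr7*, receptors for nucleic acids in endosomes.

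Another 59 interferon-stimulated genes, in 54 loci, were not among the 38. Of these loci 0 passed after adjustment and 0 at the unadjusted threshold by edgeR's quasi-likelihood test, 48 were above 0 and 6 below, and the median was 0.17. *Uba7*, the activating enzyme for ISG15, in a locus with *Ip6k1* and others, had the smallest *p* (305, 371 and 357 (*fat-1*) and 301, 295 and 348 CPM (WT), unadjusted *p* = 0.283), followed by *Ifitm2*, a membrane protein that blocks viral entry (77.6, 86.03 and 150.1 (*fat-1*) and 127, 155 and 92.7 CPM (WT), unadjusted *p* = 0.425). *fat-1* 1 was the lowest of all libraries in 46 of the 54 loci, and WT 3 was over 2-fold above WT 2 in 13.

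Plasmacytoid dendritic cells, a major source of type I interferon, left little RNA. *Siglech* had 0.313, 0.578 and 0.644 CPM in the *fat-1* libraries and 0.262, 0.203 and 0.798 CPM in the WT libraries, and *Klk1* was at or below 0.224 CPM. *Ccr9* had 1.31, 2.30 and 1.46 CPM in the *fat-1* libraries and 1.23, 1.39 and 2.38 CPM in the WT libraries. *Ly6d*, with 142 to 244 CPM, is also made by other cells, and it was highest in WT 1 and *fat-1* 1.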

How the data were processed

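RNA was sequenced from 3 *fat-1* and 3 WT pools of isolated mammary epithelial cells, and the group and replicate number of each came from the sample labels. Reads had been aligned by the authors to GRCm38 (HISAT2) and transcripts assembled by StringTie, whose estimated counts were deposited as whole numbers, not normalized, in 1 matrix. The 38 genes, the gene lists and the rule for the genes named were chosen with earlier results of these data known. *edgeR* 4.0.16 in R 4.3.3 was run on all rows (30683 tested) and on sums of rows that share a locus number (24061 tested), with filterByExpr, TMM, genotype as the only term, the quasi-likelihood test (newer fit), Benjamini–Hochberg adjustment and a threshold of 0.05. SEs were derived from the log2 fold change and its F statistic. Totals of 204539059 to 232148824 counts make 1 count worth less than 0.01 CPM, so the 3 pools of a genotype limit the precision. The labels do not say that the pools were processed separately, so *p*-values measure the spread between these pools. The search was for the letters given, in RefSeq promoter windows. Positions are from GENCODE vM21. *Tmem173* and *Mb21d1* were matched as *Sting1* and *Cgas*.

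All 38 genes were accounted for by role. Values by library were given for the 3 highest per kb of the exons of all genes in the locus, the 5 smallest *p*-values of each fit, genes whose row and locus differ by over 0.5 on the log2 scale or that share a locus, *Stat2*, *Irf9*, *Irf7*, *Isg15*, *Ddx58* and *Ifih1*, and genes with over 3-fold range within a genotype, and for each other list the 2 smallest *p*-values, with further genes named after their values were seen. The list of signalling genes holds 1 gene that enters its counts and is not reported here by itself. Alternatives were other normalizations, no filter, DESeq2 1.42.0, the exact test and older fit of *edgeR*, a replicate block, an immune marker term, sums by symbol and leaving out each library. Of the tests, only the quasi-likelihood test was tried on simulated counts, and how many changes it recovered at the real spread is not given here. Plots were made with Python 3.11.15 and matplotlib 3.10.9.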

Additional observations from a re-analysis of the deposited data

How the results depend on the processing

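After adjustment, 0 of the 38 rows and 0 of the 34 loci passed under every alternative run. At the unadjusted threshold the count of rows was 0 to 2 when 1 library was left out (2 without *fat-1* replicate 1, *Oas1b* and *Ifi44*, and 2 without WT replicate 3, *Gbp2* and *Bst2*) and 0 otherwise, and that of loci was 0 throughout. The median log2 fold change of the loci lay between 0.12 and 0.14 under the other normalizations, tests, filter and sums by symbol, with no gene changing sign under the normalizations, tests and filter. Leaving out 1 library gave -0.12 to 0.53 for loci and -0.16 to 0.51 for rows. The immune marker term gave -0.03 for loci and -0.04 for rows, and 20 of 34 loci changed sign.

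Libraries of the same replicate number did not always deviate alike, which cannot show whether pools of the same number were handled together. Deviations from the group means correlated at 0.80 for number 1, -0.16 for number 2 and 0.13 for number 3, and *fat-1* 2 correlated best with WT 3 (0.79). With the replicate block, 0 rows and 0 loci passed adjusted or unadjusted, the median was 0.01 for loci and -0.01 for rows, and 11 of 34 loci changed sign. The 3 pools per genotype, not depth, limit these values.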

Other observations

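The genes given here are from the list of other interferon-stimulated genes and were chosen after their values were seen. *Ifi27*, *Ifi30* and *Ifitm3* did not follow the order of libraries of the summed members. *Ifi27*, a gene of the mitochondrial and nuclear membranes, had 70.2, 54.4 and 60.8 CPM in the *fat-1* libraries and 78.6, 63.7 and 46.6 CPM in the WT libraries, so that *fat-1* 1 and WT 1 were the highest of their genotypes. *Ifi30*, a thiol reductase of antigen processing, had 54.6, 61.7 and 65.1 CPM and 51.7, 48.7 and 69.4 CPM. *Ifitm3*, which blocks viral entry, had 313, 513 and 685 CPM and 496, 695 and 527 CPM, with WT 2 the highest library. The chemokine genes *Cxcl9* and *Cxcl10*, which attract T cells, had some of the widest ranges of that list. *Cxcl9* had 24.5, 193 and 444 CPM in *fat-1* and 64.5, 177 and 311 CPM in WT, and *Cxcl10* had 28.2, 173 and 250 CPM in *fat-1* and 43.1, 72.0 and 190 CPM in WT. The immunity-related GTPase gene *Iigp1* had 60.2, 357 and 653 CPM in *fat-1* and 71.0, 145 and 615 CPM in WT. *Cxcl9*, *Cxcl10* and *Iigp1* each followed the order of libraries of the summed members. None of these loci passed the genotype test, and what sets the order of libraries was not tested.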
